A study of Mus musculus with 2 samples.

Results

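Many mouse genes carry a provisional symbol that is the identifier of a full-length cDNA clone from the RIKEN collection, and the first 4 characters of that identifier name the cDNA library the clone came from. The genes described here are those whose symbol ends in Rik and starts with 1700, 4921, 4930, 4931, 4932 or 4933, the codes of libraries made from testis. The rule uses the symbol and no measured value. Of 20393 probe sets that name a single gene, 79 met this rule, and they represent 63 genes. The other 140 probe sets with a symbol ending in Rik, for 107 genes, are the comparison.

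The values come from epididymal white adipose tissue, the fat pad beside the epididymis and testis, of male mice fed chow. RNA of 5 wild-type animals formed 1 pool and RNA of 5 animals lacking PPARβ/δ, a lipid-sensing nuclear receptor encoded by Ppard, formed the other, with 1 Affymetrix array per pool. The wild-type label gives strain 129S1/SvJae and an age of 12 to 16 weeks. The knockout label gives a mixed Sv129/C57BL/6 background and an age of 12 weeks. The series design calls the controls littermates, so the sources differ on the strain of the wild-type pool, and strain and genotype cannot be told apart here. With 1 array per genotype there is no spread between replicates, no test was possible, and every difference below describes these 2 arrays. The question the design poses is how gene expression in this fat differs without PPARβ/δ.

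Sperm develop in the testis from spermatogonia through meiotic spermatocytes and round spermatids to elongating spermatids. Male germ cells transcribe an unusually large share of the genome, including many genes, retrogenes and noncoding RNAs with little or no expression elsewhere, which is why testis libraries gave so many clones with no earlier name. A clone found in testis need not be restricted to it, since genes used by every cell are also in such libraries. Of the 63 genes, 61 had a current gene record in RefSeq (GRCm38.p6), and all of those still carried a Rik symbol. The records class 41 genes as protein-coding, 16 as long noncoding RNA and 4 as transcribed pseudogenes.

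Intensities are on a linear scale. A floor of 32 (log2 of 5) was used to mark values too dim to rank, and lower values were set to it before a fold was counted, so that a fold from a dim value is a minimum, written "at least". No probe set was removed. Ppard itself was measured at 6.58 and 6.27, wild type first, which is too dim to check the genotype labels. The adipocyte markers Adipoq, Fabp4 and Lpl were between 8030 and 15004 in both pools, and the epididymal secretory genes Lcn5 and Gpx5 were between 7698 and 15841 in both. Each of these genes differed by less than 2-fold, but 7 of 11 adipocyte markers were at least 2-fold lower in knockout fat. Of 10 epididymal markers, 1 was at least 2-fold higher there.

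Testis-library RIKEN genes were mostly dim in wild-type fat and many were bright in knockout fat. In wild-type fat 11 of the 79 probe sets (13.9%) were at or above the floor, against 41 (51.9%) in knockout fat. All 11 that reached the floor in wild-type fat also reached it in knockout fat, 30 reached it in knockout fat only, and 38 were below it on both arrays. Among the other RIKEN probe sets the numbers were close between the pools, 60 of 140 (42.9%) and 63 (45.0%). Over all 20393 probe sets the shares were 42.7% and 43.9%.

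By fold, 27 of the 79 probe sets (34.2%) were at least 2-fold higher in knockout fat and 1 was at least 2-fold lower. Over all probe sets naming 1 gene, 4.87% were that much higher and 3.67% that much lower. Of the other RIKEN probe sets 10 (7.14%) were higher and 4 lower. At 16-fold or more, 12 testis-library probe sets of 10 genes were higher, against 0.662% of all probe sets and 0 other RIKEN probe sets. Those 12 made up 8.89% of the 135 probe sets in the whole table with so large a difference. None of the 20393 probe sets was 16-fold or more lower, so the lack of such members is not particular to them. In bulk tissue a different number of cells and a different amount of RNA per cell cannot be told apart.

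The median of the 79 differences, log2 knockout minus log2 wild type as measured, was 0.56, with quartiles of -0.06 and 3.11. The other RIKEN probe sets had a median of -0.06 and quartiles of -0.32 and 0.21, and all probe sets a median of -0.08. With dim values at the floor the median was 0 for each of these groups, because so many probe sets were dim on both arrays. The testis-library differences were graded, with 12 probe sets at least 16-fold higher and 15 between 2-fold and 16-fold higher. The 38 below the floor on both arrays have a difference of 0 after the floor by construction. As measured, their differences ran from -0.43 to 1.57.

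**Figure D1:**
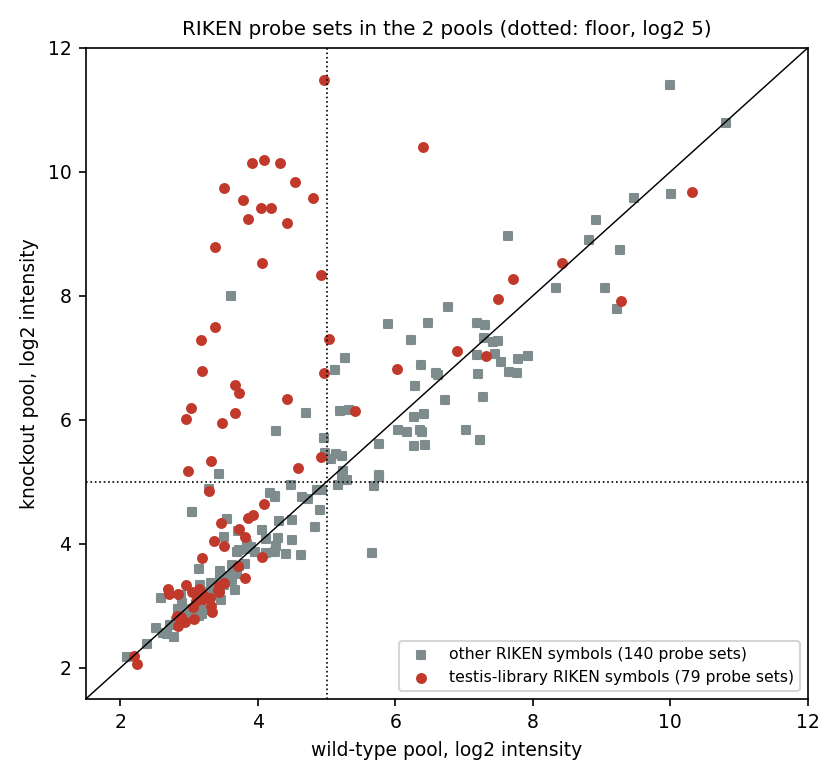
Each point is 1 probe set, with log2 intensity in wild-type fat on the horizontal axis and in knockout fat on the vertical axis; red circles are the 79 testis-library RIKEN probe sets, grey squares the 140 other RIKEN probe sets, the solid line equal values and the dotted lines the floor. The 30 red circles in the upper left part were below the floor in wild-type fat and at or above it in knockout fat, where 6 grey squares lie.

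Since the share of probe sets counted as higher differs with the wild-type level, the groups were also compared at like wild-type levels. Of the probe sets below the floor in wild-type fat, 30 of 68 testis-library sets (44.1%) reached it in knockout fat, against 6 of 80 other RIKEN sets (7.5%) and 935 of all 11691 (7.998%). For wild-type intensities from 16 to 32, 12 of 16 testis-library sets (75%) were at least 2-fold higher in knockout fat, against 1 of 25 other RIKEN sets (4.0%) and 6.02% of all. From 8 to 16 the counts were 12 of 40 (30%), 1 of 39 (2.56%) and 2.79% of all. Below 8, the dimmest range, 1 of 12 (8.33%), 0 of 16 and 0.840% were. From 32 to 128 the counts were 2 of 5 (40%), 6 of 33 (18.2%) and 9.34%, and above 128 they were 0 of 6, 2 of 27 (7.41%) and 4.64%. Of the 27 testis-library sets that were at least 2-fold higher, 25 were below the floor in wild-type fat.

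The member with the largest difference was 1700074P13Rik, a protein-coding gene whose record also lists the trypsin-family name Tryx5. It was at 31.1 in wild-type fat, just under the floor, and 2859 in knockout fat, at least 89.4-fold higher. This difference ranked 2 among all 20393 probe sets. 4930544G11Rik was at 17.0 and 1167, at least 36.5-fold higher, and had the next largest difference among the members. It was the only member with a code other than 1700 that was 16-fold or more higher.

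Another 2 coding genes were close to it in both pools. 1700034I23Rik was at 15.2 in wild-type fat and 1132 in knockout fat, at least 35.4-fold higher. 1700029H14Rik was at 20.04 and 1124, at least 35.1-fold higher. Both were dim in wild-type fat, so their exact order there carries no information.

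The next members lay between 577 and 917 in knockout fat. 1700019N19Rik was at 23.4 in wild-type fat and 917 in knockout fat, at least 28.6-fold higher. 1700093K21Rik was at 11.4 and 851, at least 26.6-fold higher. 1700010I14Rik was measured by 3 probe sets that agreed closely. They were at 27.9, 18.4 and 14.5 in wild-type fat and at 761, 682 and 602 in knockout fat, with log2 differences after the floor of 4.57, 4.41 and 4.23.

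1700018B24Rik, a transcribed pseudogene, was the only noncoding member in this range, at 13.8 in wild-type fat and 750 in knockout fat, at least 23.4-fold higher. 1700020D05Rik, whose record lists the name mage-g2 of the MAGE family, known for members expressed in germ cells and tumours, was at 21.4 and 577, at least 18.04-fold higher. 1700029F12Rik was at 10.4 and 440, at least 13.7-fold higher. Each of these genes was below the floor in wild-type fat.

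Probe sets of 1 gene did not always give the same result. 1700001C19Rik was at 16.5 and 682 on 1 probe set, at least 21.3-fold higher, but at 14.1 and 10.9, below the floor in both pools, on the other. 4930453N24Rik was above the floor in both pools on its brightest probe set, at 84.4 and 1348, a 15.98-fold difference. A further probe set of this gene was at 21.4 and 80.8, and the remaining 3 of its 5 were at 11.4 or less on both arrays. The mean log2 over its 5 probe sets was higher by 1.12 as measured; after the floor, which the wild-type mean did not reach, the difference is a minimum of 0.09. Of the 11 member genes with several probe sets, 1 had all of them at least 2-fold higher, 3 had some, and 4 were below the floor throughout. No member had probe sets that differed by 2-fold or more in opposite directions.

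Promoters of 5 members were taken from RefSeq windows of 250 bases before to 50 after a start site, in build GRCm38.p6, available for 54 of the 63 genes. The highest member is shown first. The others are 2 pairs that share a motif, each with 1 member that was far higher in knockout fat and 1 that was within 2-fold. Motif letters are in capitals. The first promoter has CGGTTA (the MYB letters TAACNG on the other strand). The next pair has TGACGCAG (a variant of the cyclic AMP response element known from spermatid genes). The last pair has the X-box, which RFX factors bind. MYB letters occur in all 5 promoters and are in capitals only where neither TGACGCAG nor the X-box is present. All are written 5′ to 3′ along the gene.
1700074P13Rik, chr6:40940508-40940807, minus strand: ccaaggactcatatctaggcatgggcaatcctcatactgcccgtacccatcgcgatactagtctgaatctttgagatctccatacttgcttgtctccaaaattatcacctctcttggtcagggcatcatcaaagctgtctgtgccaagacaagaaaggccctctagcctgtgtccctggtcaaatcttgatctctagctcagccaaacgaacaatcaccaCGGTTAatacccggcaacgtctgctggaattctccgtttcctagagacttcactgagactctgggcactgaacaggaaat
1700034I23Rik, chr3:40902452-40902751, minus strand: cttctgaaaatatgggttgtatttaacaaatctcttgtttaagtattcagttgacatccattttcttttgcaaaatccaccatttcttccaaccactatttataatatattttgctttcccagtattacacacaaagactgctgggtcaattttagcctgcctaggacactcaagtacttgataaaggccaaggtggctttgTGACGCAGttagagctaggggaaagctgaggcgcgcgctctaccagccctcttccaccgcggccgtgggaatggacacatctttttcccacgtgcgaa
4932438A13Rik, chr3:36862856-36863155, plus strand: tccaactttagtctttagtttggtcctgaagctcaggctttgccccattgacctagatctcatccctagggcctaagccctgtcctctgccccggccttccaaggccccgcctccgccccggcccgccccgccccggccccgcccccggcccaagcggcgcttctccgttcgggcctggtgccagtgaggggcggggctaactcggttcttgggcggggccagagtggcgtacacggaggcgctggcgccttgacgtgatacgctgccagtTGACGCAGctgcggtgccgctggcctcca
1700010I14Rik, chr17:8988083-8988382, plus strand: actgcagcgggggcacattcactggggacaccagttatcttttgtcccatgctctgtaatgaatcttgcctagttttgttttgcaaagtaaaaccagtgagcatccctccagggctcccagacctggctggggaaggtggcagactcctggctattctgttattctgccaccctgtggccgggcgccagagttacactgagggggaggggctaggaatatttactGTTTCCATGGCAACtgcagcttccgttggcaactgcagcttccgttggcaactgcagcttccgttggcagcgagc
1700088E04Rik, chr15:79141202-79141501, minus strand: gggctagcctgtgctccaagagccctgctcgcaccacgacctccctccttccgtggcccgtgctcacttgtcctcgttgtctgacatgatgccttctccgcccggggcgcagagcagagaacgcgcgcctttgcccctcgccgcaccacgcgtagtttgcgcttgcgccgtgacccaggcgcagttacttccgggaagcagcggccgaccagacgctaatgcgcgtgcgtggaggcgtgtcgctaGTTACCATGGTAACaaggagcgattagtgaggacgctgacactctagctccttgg

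In 1700034I23Rik the TGACGCAG letters begin 48 bases before the start, and in 4932438A13Rik they begin 21 bases after the first transcribed base. These genes differed widely in response, at least 35.4-fold higher in the former against 1.48-fold in the latter. The X-box of 1700010I14Rik begins 25 bases before the start and that of 1700088E04Rik 5 bases before it, and these genes were at least 23.8-fold and 1.65-fold higher. In both pairs the same letters were thus present in a member that was far higher and in one that was within 2-fold.

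Over all windows of the same length, motifs were counted on both strands. The genes at least 2-fold higher had 27 windows for 21 genes and the remaining members 37 windows for 33 genes. The response element TGACGTCA was in 0 of 27 and 0 of 37 windows, against 1.79% of all 32851. TGACGCAG was in 1 of 27, 1 of 37 and 0.773% of all, and the X-box in 1 of 27, 1 of 37 and 0.128%. MYB letters (CAACNG or TAACNG) were in 17 of 27 (63.0%), 27 of 37 (73.0%) and 49.7% of all. The TATA box TATAAA was in 1 of 27 windows, 2 of 37 and 13.6% of all, the CCAAT box in 7, 8 and 37.4%, and the GC box GGGCGG in 7, 15 and 35.7%. In 1700034I23Rik, 4932438A13Rik and 1700010I14Rik a MYB match overlaps the letters in capitals. These counts describe letters in a window and were not tested.

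**Figure D2:**
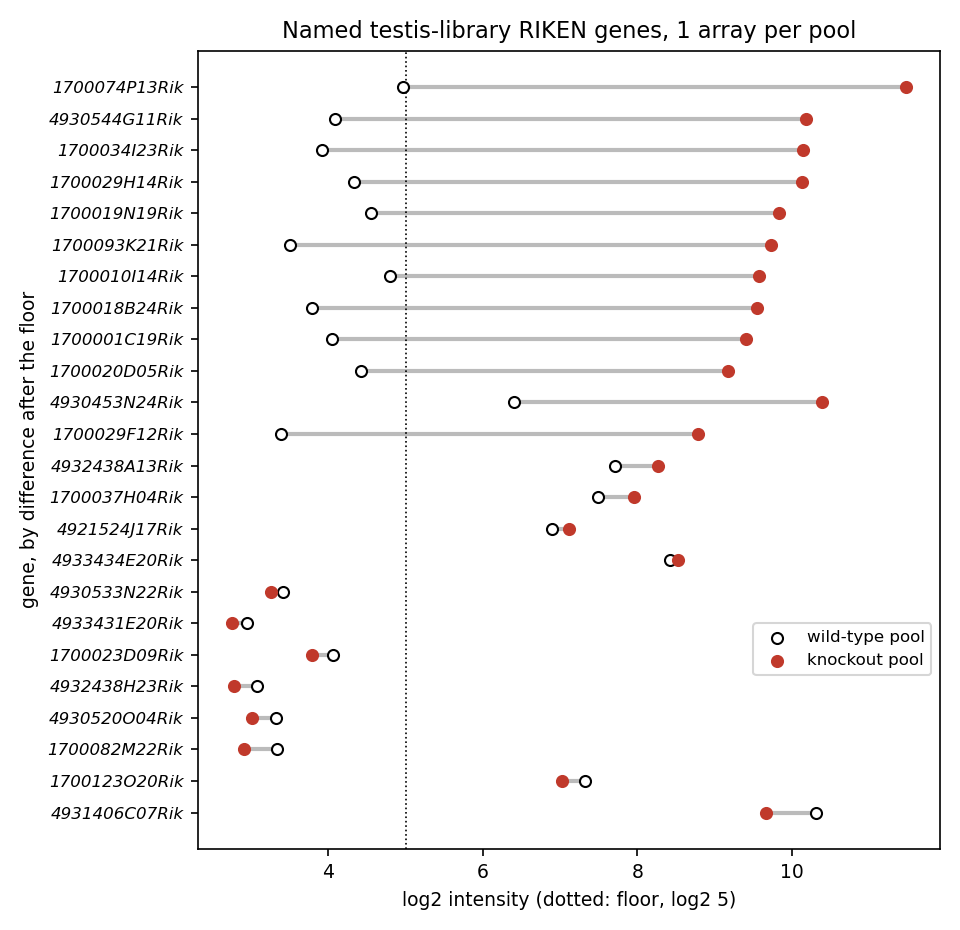
Log2 intensity of the 24 named members in wild-type fat (open circles) and knockout fat (red circles), 1 array each, ordered by difference after the floor (dotted line). The 12 genes at the top run from 440 to 2859 in knockout fat, and 11 of them were below the floor in wild-type fat.

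Below these, 15 probe sets of 13 genes were between 2-fold and 16-fold higher. 1700129C05Rik was at 16.6 and 370, at least 11.6-fold higher, and 1700028P14Rik at 30.2 and 324, at least 10.1-fold higher. The long noncoding RNA 1700067P10Rik was at 10.4 and 180, at least 5.61-fold higher. 1700001K19Rik, at 32.9 and 157, was 4.78-fold higher and was measured above the floor in both pools. The member nearest above the 2-fold mark was 1700001O22Rik, at 7.72 and 64.8, a log2 difference of 1.02 after the floor, and the nearest below it was 4931417E11Rik, at 11.2 and 61.8, a difference of 0.95. Of the probe sets that reached the floor in knockout fat only, 5 did so without a 2-fold difference, at 36.1 to 61.8 there.

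Of the 11 probe sets at or above the floor in wild-type fat, 2 were at least 2-fold higher in knockout fat (4930453N24Rik and 1700001K19Rik, above), 1 was at least 2-fold lower, and 8 were within 2-fold. The last 8 ran from 42.6 to 1276 in wild-type fat and from 70.4 to 815 in knockout fat. 4933434E20Rik, also listed as NICE-3, was at 343 and 370, a log2 difference of 0.11. 4932438A13Rik, also listed as Kiaa1109 and Tweek, a large lipid transfer protein, was at 209 and 309, a difference of 0.56. 1700037H04Rik was at 180 and 248 (0.46) and 4921524J17Rik at 119 and 139 (0.22). These 4 genes were slightly higher in knockout fat, as measured on 1 array each.

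Of the genes at or above the floor in both pools, 2 were lower in knockout fat. 4931406C07Rik, a predicted ester hydrolase and the brightest member in wild-type fat, was at 1276 and 815 on its brighter probe set, 1.57-fold lower. On its other probe set it was at 626 and 241, 2.60-fold lower, and this was the single testis-library probe set counted as lower. 1700123O20Rik was at 160 and 130, a difference of -0.29. With the trend of difference with intensity removed, this was -0.12. Adipocyte markers were lower in knockout fat by a median of -1.20, 7 of 11 of them by 2-fold or more; their part in these values was not tested.

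At the other end, 38 probe sets did not reach the floor in either pool, and 28 of the 63 genes had no probe set above it. Their intensities ran from 4.58 to 17.0 in wild-type fat and from 4.17 to 28.8 in knockout fat. Among them were the noncoding RNAs 4930533N22Rik (10.7 and 9.58), 4933431E20Rik (7.71 and 6.71), 1700023D09Rik (16.7 and 13.9) and 4930520O04Rik (9.98 and 8.03). The coding gene 4932438H23Rik was at 8.42 and 6.88, and 1700082M22Rik, without a current gene record, at 10.1 and 7.502. Not every testis-library symbol thus had a signal in knockout fat at the sensitivity of these arrays.

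Library code went with the size of the difference. Of 42 probe sets with code 1700, 23 (54.8%) were at least 2-fold higher and none lower, and the median difference was 2.35. Of 37 with the codes 4921 to 4933, 4 were higher and 1 lower, with a median of 0.22. By single code, 3 of 19 with 4930 and 1 of 9 with 4933 were higher, and none of the 2 with 4921, 3 with 4931 or 4 with 4932. Over all probe sets naming 1 gene, 4.87% were higher and 3.67% lower. The codes differed also in detection, with 28 of 42 probe sets of code 1700 at or above the floor in knockout fat and 13 of 37 of the others.

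Gene type moved with these counts too. Of the 52 probe sets of protein-coding members 23 were higher, of the 20 of long noncoding RNAs 3, and of the 5 of transcribed pseudogenes 1. Over all probe sets naming 1 gene, 4.92% of coding, 3.14% of long noncoding and 3.28% of transcribed pseudogene sets were higher. Within code 1700, 19 of 28 coding probe sets and 4 of 14 others were higher. Within the codes 4921 to 4933, 4 of 24 coding and 0 of 13 others were. Of the 20 probe sets of long noncoding RNAs 17 were below the floor on both arrays, against 16 of 52 coding ones. Of the 5 of transcribed pseudogenes, 3 were. For comparison, 19 of the 22 long noncoding sets among the other RIKEN symbols stayed under the floor in both pools and 2 were higher.

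**Figure D3:**
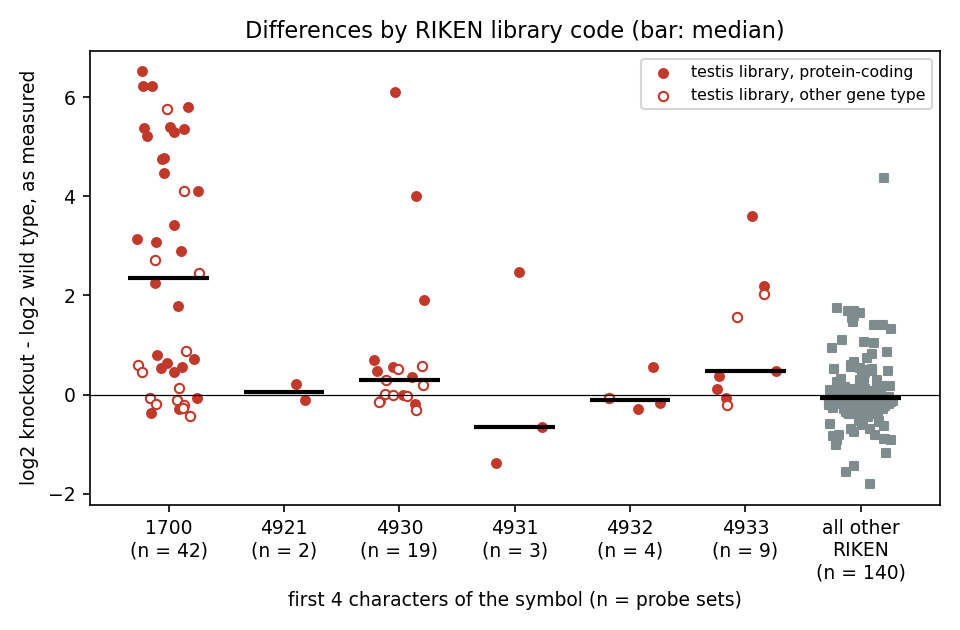
Log2 difference as measured (vertical axis) of each RIKEN probe set by the first 4 characters of its symbol, with filled red circles for protein-coding testis-library genes, open circles for other gene types, grey squares for the 140 other RIKEN probe sets and a bar at each median. Code 1700 has a median of 2.35 and holds most of the points above 2, whereas the other RIKEN probe sets have a median of -0.06.

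The other RIKEN symbols held 1 gene with a difference of similar kind. 3110070M22Rik, a long noncoding RNA, was at 12.2 in wild-type fat and 254 in knockout fat, at least 7.95-fold higher, the largest of the 140. D030056L22Rik followed at 3.34-fold and 1810055G02Rik at 3.22-fold. The lowest were C230091D08Rik (2.94-fold lower), C330007P06Rik (2.72-fold) and B230308N11Rik (2.01-fold).

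Genes beside the members on the chromosome did not share their differences as a group. The nearest measured genes on either side of the 23 genes that were at least 2-fold higher numbered 46, and 3 of them (6.52%) were also higher: Dnah8, a sperm axonemal dynein, beside 1700097N02Rik, Larp1b beside 1700034I23Rik and Smc5 beside 1700028P14Rik. Beside the other members 6 of 77 (7.79%) were, and over all genes 5.99%. Dnah8 was at 15.2 and 1322, whereas the noncoding 1700097N02Rik next to it was at 13.2 and 86.7.

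Markers of male germ cells were higher in knockout fat, with the largest medians in the spermatid lists. All 12 measured markers of elongating spermatids were at least 2-fold higher, from Prm1, a protamine, at 1193 and 10833 to Gsg1 at 38.5 and 3282, and their summed intensity was 3067 in wild-type fat and 57276 in knockout fat. Of 11 round spermatid markers 10 were higher (sums of 345 and 10595), from Acr, the acrosomal protease, at 7.14 and 164 to Cetn1 at 15.4 and 1340. The exception, Crem, was at 54.6 and 43.9.

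Of 16 spermatocyte markers 10 were higher (sums of 990 and 15272), with Pgk2 at 44.7 and 2887 highest and Spo11, which makes meiotic DNA breaks, at 11.3 and 34.6 lowest of those detected. Dmc1, Tdrd1 and Mybl1 did not reach the floor on either array. Of 7 spermatogonial markers 3 were higher and 1 lower, from Zbtb16 at 502 and 236 to Ddx4, a germ cell RNA helicase, at 25.6 and 1442; Stra8, Kit and Uchl1 were below the floor. No marker of any list was listed at 0. The members' median per gene after the floor was 0.17, against 0 for spermatogonia, 1.81 for spermatocytes, 4.14 for round and 4.73 for elongating spermatids.

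Of 6 genes of the axoneme, shared by sperm tails and motile cilia, 3 were higher. Those detected ran from Rsph9 at 14.4 and 57.9, at least 1.81-fold higher, to Rsph1 at 57.7 and 1836. Foxj1, the master factor of motile cilia, was below the floor in both pools. Somatic cells of the testis had little signal. After the floor, none of 10 Sertoli cell markers was 2-fold different (sums as measured of 161 and 245). Wt1 was at 32.2 and 31.9 and Cldn11 at 23.9 and 60.6. Amh, Fshr, Dmrt1 and Gata4 were below the floor in both pools. So were Rhox5 (9.80 and 26.4), Amhr2 (11.1 and 24.6) and Inha (10.7 and 21.9), each more than 2-fold higher as measured. Of 5 Leydig cell markers Cyp17a1 alone passed the floor, at 44.0 and 312. The others were also higher in knockout fat as measured. Epididymal markers were bright in both pools (10 of 10, sums of 54870 and 64845), from Cuzd1 at 9657 and 9440 to Defb1 at 123 and 366.

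Markers of the fat pad's own cells were lower: 7 of 11 adipocyte (sums of 60424 and 40084), 3 of 9 macrophage (2966 and 1584) and 4 of 8 endothelial markers (892 and 471) by 2-fold or more, and none higher. Their extremes were Lep (1698 and 233) and Fabp4 (15004 and 13018), Cd163 (85.7 and 14.01) and Adgre1 (58.8 and 47.0), and Sox18 (118 and 39.1) and Cldn5 (141 and 143). The part of germ cell, epididymal and fat cell RNA in the members' values was not tested. The arrays' number, 1 per genotype, limits the precision of all of them.

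**Figure D4:**
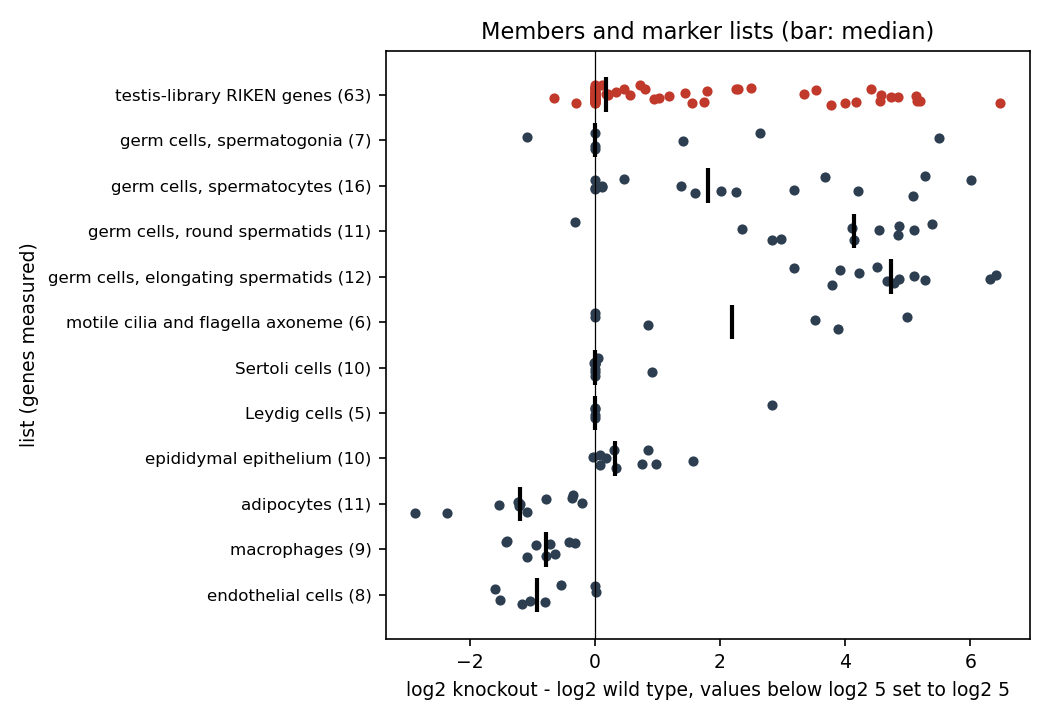
Log2 difference after the floor (horizontal axis) of each gene of the testis-library RIKEN group (red) and of 11 marker lists (dark), with a bar at each median and the number of genes measured in brackets. The members spread from -0.65 to 6.48, reaching as high as the spermatid lists, whose medians are 4.14 and 4.73, while more members lie at 0.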

How the data were processed

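The authors deposited 1 intensity per probe set and array. Per the submitters' processing notes it came from GCRMA 2.20, a method that subtracts background by probe sequence, normalises between arrays and compresses dim values. The deposited intensities are linear; the set of arrays in that normalisation is not given in the sources. The probe annotation is that of a smaller array than the design text names, and the table held 22690 probe sets. Of these, 20393 named 1 gene, 691 several and 1606 none, and the unnamed and ambiguous ones were not counted.

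Log2 was taken, values below log2 5 were set to 5 before folds were counted, and 2-fold was the mark. Symbols were updated by Entrez identifier (20364 matched). Named genes were the 12 highest and 8 lowest members (1 probe set per gene), the 5 brightest, the 5 closest to 0 among those at or above the floor on both arrays, the 3 highest and lowest other RIKEN genes and the extremes of each marker list; further genes were chosen after their values were seen. Members and lists were chosen with earlier results of these data known. Counting was tested on simulated data (Python 3.11.15, pandas 2.3.3, numpy 2.4.6; trend by lowess in statsmodels 0.14.6). Alternatives were other floors, fold, scaling, probe set choice and codes. No test between genotypes was made.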

Additional observations from a re-analysis of the deposited data

Results flagged for a closer look

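A probe set outside the comparisons, because it names 3 genes, also had signal in knockout fat above the wild-type level. The probe set, which names 1700001F09Rik together with Gm10375 and Gm10377, was at 23.1 in wild-type fat and 168 in knockout fat, a log2 difference of 2.39 after the floor. Of the 6 probe sets naming several genes, a testis-library symbol among them, this 1 was at least 2-fold higher and 1 was at least 2-fold lower. The lower one, of 1700071K01Rik and Phb, was at 109 and 48.7, a difference of -1.17. A brighter probe set of the same pair was at 690 and 453, a difference of -0.61, within 2-fold.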

How the results depend on the processing

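No paired analysis was possible because there is 1 array per genotype, and none could be left out. The count of testis-library probe sets at least 2-fold higher (27 of 79) stayed between 18 and 31 over the alternatives, fold mark included. Some alternatives counted fewer probe sets, or genes, as given below. With a floor of log2 4 their median became 0.41 and 27 reached the floor in wild-type fat. With no floor the medians were 0.56 for them and -0.059 for the other RIKEN sets. With 1 probe set per gene (63 testis-library and 107 other RIKEN genes) the median was 0.17 and the lower count 0. With the mean per gene, over the same genes, the median was 0.17 and the lower count of other RIKEN genes 2. Without probe sets of shared sequence, 64 testis-library and 113 other RIKEN sets remained. Of the 64, 18 were higher, 0 were lower and 27 were at or above the floor in knockout fat. Of the 113, 5 were higher. With only symbols still ending in Rik in a gene record, 2 of 132 other RIKEN sets were lower. At 4-fold the lower count was 0, and of other RIKEN sets 1 was higher and 0 lower. Adding the 2 further testis codes planned brought in no probe set. For the 24 named members under 6 alternatives, none reversed, and 2 crossed the 2-fold mark, both under the mean of probe sets. These were 4930453N24Rik at 0.09, a minimum, and 4931406C07Rik at -1.01. The lack of reversals says little. Members below the floor on both arrays were held there under most alternatives, and the highest members had been picked by their large differences. Probe sets at or above the floor on both arrays had a median difference of -0.12 before scaling, which centring sets to 0. Intensities below 32 limit every fold given as a minimum.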

Other observations

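Many genes that now have another name still list a RIKEN clone among the synonyms of their RefSeq record, which gives a set that the symbol rule did not use. It was chosen after the members' values were seen, on the same 2 arrays. Of 468 genes whose listed clones all came from the testis libraries, 146 (31.2%) were at least 2-fold higher in knockout fat and 7 lower. Of 4859 genes with clones of other libraries only, 202 (4.16%) were higher and 211 lower, and of 293 with both kinds 42 (14.3%) and 6. Among 6604 genes with no listed clone 322 (4.88%) were higher. The germ cell lists hold 5 of the 468, and 142 of the other 463 were higher. By code, 76 of 171 genes with 1700 alone (44.4%) and 63 of 283 with the codes 4921 to 4933 (22.3%) were higher.

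The renamed genes include several known from sperm, and some of those with large differences follow. Hmgb4, a chromatin protein of germ cells, was at 46.0 and 3144, and Fabp9, the fatty acid carrier of the sperm head, at 90.6 and 5135. Spata19, a mitochondrial protein of the sperm midpiece, was at 28.9 and 1710, and Cabyr, a calcium-binding protein of the sperm tail, at 14.4 and 1067. Cox6b2, a testis isoform of a cytochrome oxidase subunit, was at 33.2 and 974. Other germ cell genes of this set differed less. Hormad1, of the spermatocyte list, was at 22.6 and 44.5, less than 2-fold apart. Tex11 was at 12.9 and 16.6 and Msh4 at 10.2 and 15.8, below the floor in both pools. The 7 lower genes include Lipe, hormone-sensitive lipase of adipocytes, at 3047 and 1321, Scara5, a ferritin receptor of stromal cells, at 670 and 314, and Fbxo4 at 369 and 102. Of the 468 renamed genes with testis clones only, 146 were thus at least 2-fold higher and 7 lower, and most were within 2-fold. As measured, 345 had a positive difference and 123 a negative one. Their log2 differences as measured ran from -1.86 to 7.06. Over all probe sets naming 1 gene the range was -4.94 to 7.06, so these genes reached its upper end but not its lower end.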
